A study of Mus musculus with 18 samples.

Results

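The AP-1 immediate early factors described here are 10 mouse genes: Jun, Junb, Jund, Fos, Fosb, Fosl1, Fosl2, Atf3, Klf6 and Ier2. They were taken by gene symbol from count tables of 43280 genes in 18 RNA sequencing libraries, and 9 of the 10 had enough counts to be tested. The 18 libraries came from sorted T-lineage cells in 4 groups. iRTE (n = 5, an abbreviation that the labels do not spell out) were CD8+ T cells differentiated from Pmel induced pluripotent stem cells, and by elimination they are the group that the design places in 3D thymic culture, although the growth protocol given for every sample names OP9-DL1, a bone marrow stromal line that carries a Notch ligand. Artificial CD8 (n = 5) were CD8+ T cells differentiated from the same kind of stem cell on OP9-DL1. Splenic CD8 (n = 5) were naive CD8+ T cells taken directly from the spleens of transgenic mice. CD4+CD8+ (n = 3) were double-positive T cells differentiated from the Pmel stem cells on OP9-DL1. No group received a treatment. Sorting used CD45, CD8, CD4 and TCRab, and a dump gate discarded cells with NK1.1, TCRgd or CD11c. Whether replicates were separate cultures or mice is not stated in the labels, so the p-values cover only how these samples varied.

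AP-1 is a dimer of basic leucine zipper (bZIP) proteins that binds short palindromic DNA sites. Jun proteins pair with each other or with Fos proteins, whereas Fos proteins need a Jun partner, and in T cells the dimer binds with NFAT at cytokine genes after the antigen receptor has been engaged. Many of these genes are immediate early genes: their transcription starts within minutes of a stimulus without new protein synthesis, through kinases of the MAP kinase family, and their mRNAs are short-lived. Jun is activated by the JNK kinases, Junb and Jund are its paralogs, and Fosb, Fosl1 and Fosl2 are paralogs of Fos. Atf3 is a stress-induced bZIP factor of the ATF family, Klf6 is a Krüppel-like zinc finger factor, and Ier2 is an immediate early nuclear protein without a bZIP domain.

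Expression is given in CPM, read counts of a gene relative to the total of its library, with totals scaled by the trimmed mean of M-values (TMM). Total counts ran from 11132768 to 19305751 per library, and 3 counts, taken as the floor of detection, equalled 0.152 to 0.287 CPM, which covers counting error only. Levels of different genes are not compared, because no gene lengths were used, except to say which genes made up a summed list. Those statements refer to CPM only. In these bulk libraries fewer cells of a type and less RNA per cell cannot be told apart. Of 11 T-cell markers, Cd8a was between 456 and 1385 CPM in iRTE libraries. Cd4 was at 0 counts in all 5 iRTE libraries, and had 1.89 to 9.17 CPM in Artificial CD8, at most 0.162 CPM in splenic CD8 and 155 to 263 CPM in CD4+CD8+ libraries. Rag1, a recombinase gene of immature lymphocytes, had 0 to 3.07 CPM in iRTE, 136 to 169 CPM in Artificial CD8, 0 in splenic CD8 and 258 to 463 CPM in CD4+CD8+ libraries, so the Artificial CD8 libraries carried transcripts of a gene that mature CD8+ T cells lack. Among iRTE libraries the 3.07 CPM of Rag1 was in iRTE 5, and 3 others had 0 counts. Cd5, a surface protein of T cells, had 3.99 to 13.1 CPM in iRTE, 55.3 to 57.5 CPM in Artificial CD8, 90.9 to 105 CPM in splenic CD8 and 58.2 to 78.6 CPM in CD4+CD8+ libraries. Of 6 thymic epithelial markers, Foxn1 and Psmb11 were at 0 in every iRTE library, and the summed level of the list (123 to 419 CPM in iRTE, 121 to 136 CPM in Artificial CD8, 2.75 to 5.24 CPM in splenic CD8 and 50.2 to 59.5 CPM in CD4+CD8+ libraries) was largely that of Cdh1 in all groups but splenic CD8, where Epcam averaged more than Cdh1 (2.37 and 1.35 CPM). The 8 NK and gamma-delta markers summed to 1596 to 2505 CPM in iRTE, 2235 to 2626 CPM in Artificial CD8, 110 to 124 CPM in splenic CD8 and 1805 to 2034 CPM in CD4+CD8+ libraries, nearly all of it from the gamma constant genes Tcrg-C1, Tcrg-C2 and Tcrg-C4, although the gate discarded cells with TCRgd. The sums of 7 stromal markers were at most 4.31 CPM in iRTE, 26.3 CPM in Artificial CD8, 3.62 CPM in splenic CD8 and 40.9 CPM in CD4+CD8+ libraries. B-cell markers summed to 3.45 to 7.09 CPM in iRTE, 2.34 to 7.16 CPM in Artificial CD8, 32.6 to 46.6 CPM in splenic CD8 and 5.02 to 6.14 CPM in CD4+CD8+ libraries. Erythroid markers summed to 60.6 to 86.9 CPM in iRTE, 30.8 to 43.1 CPM in Artificial CD8, 92.4 to 122 CPM in splenic CD8 and 46.9 to 56.0 CPM in CD4+CD8+ libraries. Their part in the results was not tested.

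Most members with measurable levels followed 1 of 2 patterns. Jun, Jund and Klf6 were higher in every one of the 5 iRTE libraries than in every library of the other groups. Fos, Junb and Ier2 were far higher in the library iRTE 5 than in iRTE 1 to 4, and the iRTE averages of these genes rest on that library. Fosl2 followed neither pattern, since iRTE 4 overlapped other groups and iRTE 5 was in the middle of its group. Values of the 7 members above the floor are therefore given per library. GEO describes iRTE 1 to 3 with names that begin with mature and iRTE 4 and 5 with names that begin with pmel_iRTE. The labels do not call this difference a batch.

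The promoter sequences of Jun and Klf6, which were high in all 5 iRTE libraries, and of Fos, which was high in iRTE 5 alone, are printed to show the upstream DNA of genes of both patterns. Each is the 250 bases before the RefSeq gene start in build GRCm38.p6, read 5′ to 3′ on the gene's strand, whereas the counts were made on mm9. Jun lies at chr4:95052223-95052472 on the minus strand, Klf6 at chr13:5861239-5861488 on the plus strand and Fos at chr12:85473640-85473889 on the plus strand. Capitals mark TGACATCA, a variant of the cyclic AMP response element (CRE) known from the Jun promoter.
Jun: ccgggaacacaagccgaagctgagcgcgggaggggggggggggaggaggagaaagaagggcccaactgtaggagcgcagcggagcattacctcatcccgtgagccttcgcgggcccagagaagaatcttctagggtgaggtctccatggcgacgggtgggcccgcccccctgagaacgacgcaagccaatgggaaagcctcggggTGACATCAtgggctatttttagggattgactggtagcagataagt
Klf6: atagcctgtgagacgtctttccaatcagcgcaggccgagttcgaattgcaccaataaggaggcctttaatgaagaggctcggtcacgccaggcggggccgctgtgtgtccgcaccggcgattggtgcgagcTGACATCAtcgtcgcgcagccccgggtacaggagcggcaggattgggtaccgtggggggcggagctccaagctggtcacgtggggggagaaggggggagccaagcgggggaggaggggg
Fos: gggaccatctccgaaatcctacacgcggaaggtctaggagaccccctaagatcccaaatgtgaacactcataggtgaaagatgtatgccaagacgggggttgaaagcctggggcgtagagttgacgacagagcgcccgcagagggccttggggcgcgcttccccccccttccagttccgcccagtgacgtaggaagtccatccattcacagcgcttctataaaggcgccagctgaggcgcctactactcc
The variant stood at -45 to -38 in Jun and at -119 to -112 in Klf6, counted back from the start with -1 as the last base before it. It was in 2.93% of the 32851 promoters of the table, in 2 of the 8 members that have an entry there (Jun, Junb, Jund, Fos, Fosb, Fosl2, Atf3 and Klf6). On both strands of the same window, none of these 8 held the AP-1 site TGANTCA, which 6.75% of all promoters held. None held the full CRE TGACGTCA, found in 1.55% of all promoters, or the CArG box that serum response factor binds, found in 1.47%. Matches describe these letters in this window and nothing more. Fosl1 and Ier2 are named without a sequence.

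**Figure D1:**
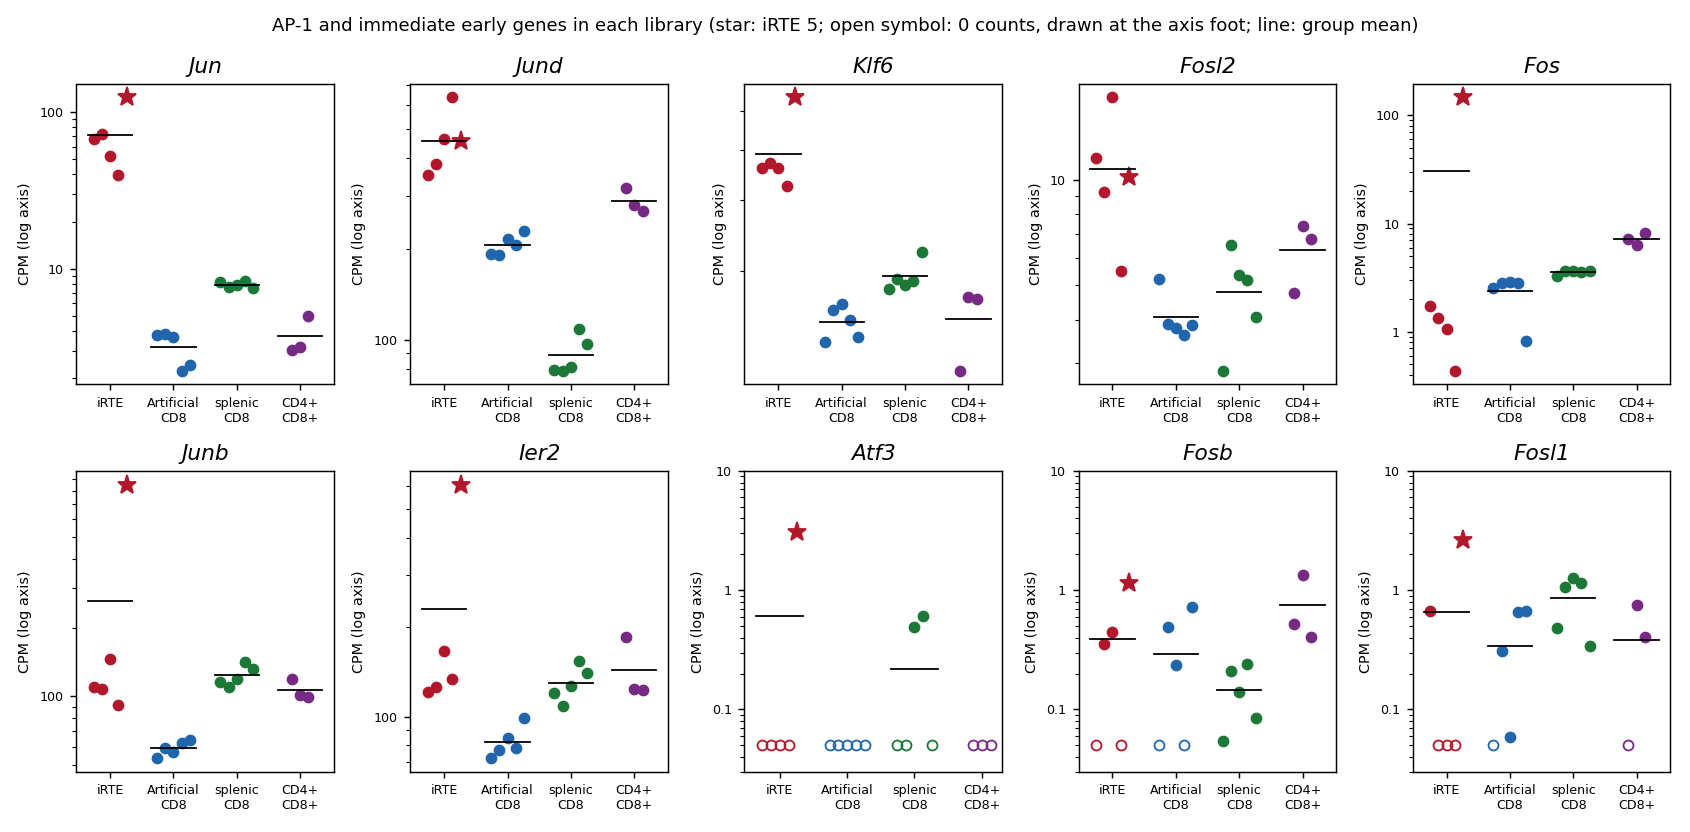
Expression of the 10 members in CPM on log axes, 1 point per library, for iRTE, Artificial CD8, splenic CD8 and CD4+CD8+ from left to right. Lines are group means, the star is iRTE 5 and open symbols are libraries with 0 counts. The 5 iRTE points lie above all others for Jun, Jund and Klf6, and for Fos, Junb and Ier2 the star lies far above the other 4 iRTE points.

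Jun, the founding member of the family and the strongest activator among its paralogs, had 66.9, 72.4, 52.5, 39.5 and 124 CPM in iRTE 1 to 5, against 3.80, 3.82, 3.67, 2.23 and 2.42 CPM in Artificial CD8 1 to 5. Splenic CD8 1 to 5 had 8.26, 7.64, 7.87, 8.32 and 7.55 CPM, and CD4+CD8+ 1 to 3 had 3.03, 3.18 and 5.02 CPM. The lowest iRTE library, iRTE 4, was above the highest library of every other group, and iRTE 5 was the highest of all 18. The means were 71.2 ± 32.4 CPM in iRTE, 3.19 ± 0.790 CPM in Artificial CD8, 7.93 ± 0.350 CPM in splenic CD8 and 3.74 ± 1.11 CPM in CD4+CD8+ cells (SD, n = 5, 5, 5 and 3). Jun was higher in iRTE than in Artificial CD8 cells by 4.48 on the log2 scale (SE of the difference in log2 CPM 0.32), a fold of 22.4 (adjusted p = 1.2e-09, edgeR quasi-likelihood test with Benjamini-Hochberg adjustment over all genes tested). It was higher in iRTE than in splenic CD8 cells by 3.16 (SE 0.28, adjusted p = 1.39e-08) and higher in iRTE than in CD4+CD8+ cells by 4.24 (SE 0.35, adjusted p = 1.1e-07). Without iRTE 5 the 3 changes were 4.18, 2.87 and 3.95, and all 3 passed. Among the other groups, Jun was lower in Artificial CD8 than in splenic CD8 cells at a log2 change of -1.32 (SE 0.17, adjusted p = 0.000267), with no overlap between the groups. Splenic CD8 cells were above CD4+CD8+ cells by 1.08 (SE 0.23, adjusted p = 0.00709), again with no overlap, and did not pass there with limma-voom (adjusted p = 0.105). The Artificial CD8 and CD4+CD8+ libraries overlapped and did not pass (adjusted p = 0.671).

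Jund, the paralog that is expressed most steadily in resting cells, had 351, 382, 461, 636 and 455 CPM in iRTE 1 to 5, against 192, 191, 215, 207 and 229 CPM in Artificial CD8 1 to 5. In splenic CD8 1 to 5 it had 79.3, 78.9, 81.4, 108 and 96.6 CPM, and CD4+CD8+ 1 to 3 had 318, 280 and 267 CPM. The 4 groups did not overlap at all for Jund: iRTE was highest, then CD4+CD8+, then Artificial CD8, and splenic CD8 was lowest. Within iRTE the highest library was iRTE 4, and iRTE 5 lay inside the range of the others. Jund rose in iRTE over Artificial CD8 cells by 1.15 on the log2 scale (SE 0.16, adjusted p = 3.29e-06), over splenic CD8 cells by 2.36 (SE 0.17, adjusted p = 2.16e-10) and over CD4+CD8+ cells by 0.67 (SE 0.17, adjusted p = 0.00538). Without iRTE 5 these changes were 1.15, 2.36 and 0.67, and all 3 passed. Artificial CD8 cells were above splenic CD8 cells by 1.22 (SE 0.10, adjusted p = 4.79e-07). Their change against CD4+CD8+ cells was -0.48 (SE 0.09, adjusted p = 0.0457), close to the threshold of 0.05, and it did not pass after leaving out any 1 of the CD4+CD8+ libraries (adjusted p = 0.0749 to 0.173) or any of Artificial CD8 1 to 4 (adjusted p = 0.0681 to 0.0938). Splenic CD8 cells stood against CD4+CD8+ cells at -1.70 (SE 0.12, adjusted p = 4.65e-08). Jun and Jund thus placed the groups in different orders: splenic CD8 was second for Jun and last for Jund.

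Klf6, a zinc finger factor induced with AP-1 genes in many cell types, had 360, 370, 360, 325 and 539 CPM in iRTE 1 to 5, against 134, 161, 166, 152 and 137 CPM in Artificial CD8 1 to 5. Splenic CD8 1 to 5 had 181, 191, 185, 189 and 224 CPM, and CD4+CD8+ 1 to 3 had 113, 172 and 171 CPM. All 5 iRTE libraries were above all others, iRTE 5 most, and the Artificial CD8 and CD4+CD8+ libraries overlapped. The changes were 1.38 for iRTE against Artificial CD8 cells (SE 0.14, adjusted p = 3.71e-07), 1.01 against splenic CD8 cells (SE 0.14, adjusted p = 5.89e-06) and 1.36 against CD4+CD8+ cells (SE 0.24, adjusted p = 8.94e-06). Without iRTE 5 they were 1.24, 0.87 and 1.22, and all 3 passed. Artificial CD8 cells were below splenic CD8 cells at a log2 change of -0.37 (SE 0.08, adjusted p = 0.025), with no overlap, a call that was lost without splenic CD8 2, 4 or 5 or Artificial CD8 1 or 5 (log2 change -0.35 to -0.29, adjusted p = 0.0524 to 0.0972). Splenic CD8 cells against CD4+CD8+ cells did not overlap but did not pass (adjusted p = 0.0684).

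Fosl2, a Fos paralog that accumulates later than Fos after a stimulus, had 11.5, 9.23, 17.2, 5.48 and 10.2 CPM in iRTE 1 to 5, against 5.20, 3.88, 3.79, 3.60 and 3.86 CPM in Artificial CD8 1 to 5. The splenic CD8 libraries 1 to 5 had 2.86, 6.51, 5.34, 5.18 and 4.07 CPM, and CD4+CD8+ 1 to 3 had 4.75, 7.37 and 6.80 CPM. Here iRTE 3 was the highest library and iRTE 5 was in the middle of its group. The iRTE libraries were above all Artificial CD8 libraries, while iRTE 4 lay within the range of splenic CD8 and of CD4+CD8+ libraries. Fosl2 was higher in iRTE than in Artificial CD8 cells by 1.39 on the log2 scale (SE 0.28, adjusted p = 0.00082) and higher in iRTE than in splenic CD8 cells by 1.16 (SE 0.33, adjusted p = 0.00204), and without iRTE 5 by 1.41 and 1.18. Against CD4+CD8+ cells its change of 0.76 (SE 0.32) did not pass (adjusted p = 0.111), nor without iRTE 5 at 0.78 (adjusted p = 0.106), and without iRTE 4 it passed at 0.93 (adjusted p = 0.0269).

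Fos, the prototype immediate early gene, had 1.72, 1.33, 1.06, 0.436 and 147 CPM in iRTE 1 to 5, against 2.51, 2.83, 2.90, 2.79 and 0.824 CPM in Artificial CD8 1 to 5. These iRTE levels rest on 18, 15, 12 and 7 counts in iRTE 1 to 4 and on 2295 counts in iRTE 5. Splenic CD8 1 to 5 had 3.29, 3.61, 3.65, 3.56 and 3.65 CPM, and CD4+CD8+ 1 to 3 had 7.26, 6.28 and 8.17 CPM. iRTE 5 was thus far above the other 17 libraries, while iRTE 1 to 4 lay below every splenic CD8 and every CD4+CD8+ library and overlapped Artificial CD8 only through Artificial CD8 5. With all libraries, the Fos change was 3.68 for iRTE against Artificial CD8 cells (SE 1.46, adjusted p = 0.0165), 3.09 against splenic CD8 cells (SE 1.42, adjusted p = 0.0238) and 2.07 against CD4+CD8+ cells (SE 1.43, adjusted p = 0.273). These SEs belong to the difference of mean log2 CPM, in which iRTE 5 weighs less than in the model's changes, so they are not errors of those changes. Without iRTE 5 all 3 changes turned negative and passed: -1.08 against Artificial CD8 cells (adjusted p = 0.0337), -1.66 against splenic CD8 cells (adjusted p = 0.00138) and -2.68 against CD4+CD8+ cells (adjusted p = 0.000134). The direction of Fos in iRTE was therefore decided by 1 of 5 libraries. With limma-voom the changes with all 5 libraries were 0.53 against Artificial CD8 cells (adjusted p = 0.716) and -0.19 against splenic CD8 cells (adjusted p = 0.874). Fos did not pass in the comparisons among the other 3 groups, although CD4+CD8+, splenic CD8 and Artificial CD8 libraries, in falling order, did not overlap.

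Junb, which pairs with Fos proteins and is induced with them, had 110, 107, 146, 91.8 and 852 CPM in iRTE 1 to 5, against 53.4, 59.0, 56.7, 62.1 and 64.0 CPM in Artificial CD8 1 to 5. Junb had, in splenic CD8 1 to 5, 116, 110, 119, 141 and 131 CPM, and CD4+CD8+ 1 to 3 had 119, 102 and 99.2 CPM. All iRTE libraries were above all Artificial CD8 libraries, but iRTE 1 to 4 spanned the range of splenic CD8 and CD4+CD8+ libraries. The change for iRTE against Artificial CD8 cells was 2.15 (SE 0.60, adjusted p = 0.00136), and 0.94 without iRTE 5 (adjusted p = 5.74e-06). Against splenic CD8 cells it was 1.08 (SE 0.60, adjusted p = 0.049) and, without iRTE 5, -0.12 (adjusted p = 0.405). Leaving out any 1 splenic CD8 library also lost that call (adjusted p = 0.0608 to 0.0842). Against CD4+CD8+ cells the change of 1.30 (SE 0.60) did not pass with all libraries (adjusted p = 0.0958), nor did that of 0.09 without iRTE 5 (adjusted p = 0.654), whereas without iRTE 4 it passed at 1.52 (adjusted p = 0.0331).

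Ier2 had 121, 125, 166, 134 and 606 CPM in iRTE 1 to 5, against 72.4, 77.2, 84.8, 78.2 and 98.5 CPM in Artificial CD8 1 to 5. Splenic CD8 1 to 5 had 120, 108, 127, 153 and 141 CPM, and CD4+CD8+ 1 to 3 had 185, 124 and 123 CPM. The picture was that of Junb: iRTE was above Artificial CD8 in every library, and iRTE 1 to 4 were within or close to the splenic CD8 and CD4+CD8+ ranges. The change against Artificial CD8 cells was 1.49 (SE 0.45, adjusted p = 0.00241), and 0.73 without iRTE 5 (adjusted p = 0.000418). Against splenic CD8 cells it was 0.83 (SE 0.45, adjusted p = 0.0468), and 0.07 without iRTE 5 (adjusted p = 0.67). That call was also lost without splenic CD8 1, 2, 3 or 5 (adjusted p = 0.0601 to 0.0879). Neither Junb nor Ier2 passed against splenic CD8 cells with RLE scaling (adjusted p = 0.0518 and 0.0503), with no scaling factor (0.0909 and 0.111) or with limma-voom (0.324 and 0.159). Against CD4+CD8+ cells Ier2 did not pass at 0.68 (SE 0.48, adjusted p = 0.247), nor at -0.08 without iRTE 5 (adjusted p = 0.774).

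Atf3, Fosb and Fosl1 were near the floor in nearly all libraries. Atf3 had 48 counts (3.07 CPM) in iRTE 5 and 0 counts in iRTE 1 to 4, in all Artificial CD8 libraries and in all CD4+CD8+ libraries. It had 7 and 10 counts in splenic CD8 3 and 4 and 0 in the other splenic CD8 libraries, and it was left out of the test by the filter on low counts. Fosl1 had 41 counts (2.62 CPM) in iRTE 5, 7 counts in iRTE 1 and 0 in iRTE 2 to 4, against 0 to 13 counts in Artificial CD8, 4 to 19 counts in splenic CD8 and 0 to 9 counts in CD4+CD8+ libraries. Fosb had 0 to 18 counts in iRTE libraries, with 18 in iRTE 5, against 0 to 14 counts in Artificial CD8, 1 to 4 counts in splenic CD8 and 5 to 16 counts in CD4+CD8+ libraries. Neither Fosb nor Fosl1 passed the test in any of the 6 comparisons, and no fold is given at these levels.

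The counts of members past the threshold were read against all 13922 genes tested. For iRTE against Artificial CD8 cells, 7 of the 9 tested members were higher and 0 were lower, and of all genes 38.7% were called, 20% higher and 18.7% lower. In that comparison 6 members did not overlap between groups, as did 23.6% of all genes, and the median log2 change was 1.39 over the tested members and 0.01 over all genes. For iRTE against splenic CD8 cells, 7 were higher and 0 lower, beside 58.2% of all genes called, 29.2% higher and 29% lower. Of these, Jun, Jund and Klf6 did not overlap, as did 41.2% of all genes, and the medians were 1.16 over the members and -0.05 over all genes. For iRTE against CD4+CD8+ cells, Jun, Jund and Klf6 were higher and did not overlap, and 0 were lower. Of all genes 24.2% were called there, 11.8% higher and 12.3% lower, and 19.5% did not overlap. The 3 comparisons share the iRTE libraries. For Artificial CD8 against splenic CD8 cells Jund was higher and Jun and Klf6 were lower, beside 60.6% of all genes called (30.3% higher and 30.2% lower), and 6 members did not overlap, as did 61.1% of all genes. For Artificial CD8 against CD4+CD8+ cells Jund alone passed, as lower, beside 14.7% of all genes (6.54% higher and 8.12% lower), and 4 members did not overlap, as did 29% of all genes. For splenic CD8 against CD4+CD8+ cells Jun was higher and Jund lower, beside 56.2% of all genes (27.4% higher and 28.9% lower), and 5 members did not overlap, as did 63.4% of all genes. Neither comparison of splenic CD8 cells with Artificial CD8 or CD4+CD8+ cells thus had a larger share of members called than of all genes. Without iRTE 5, when 8 members were tested, the counts became 6 higher and 1 lower against Artificial CD8, 4 higher and 1 lower against splenic CD8, and 3 higher and 1 lower against CD4+CD8+ cells, with Fos as the lower gene each time. Of all genes 42.1%, 62% and 28.9% were called in these comparisons without iRTE 5, so the share of members against splenic CD8 cells was near that of all genes.

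**Figure D2:**
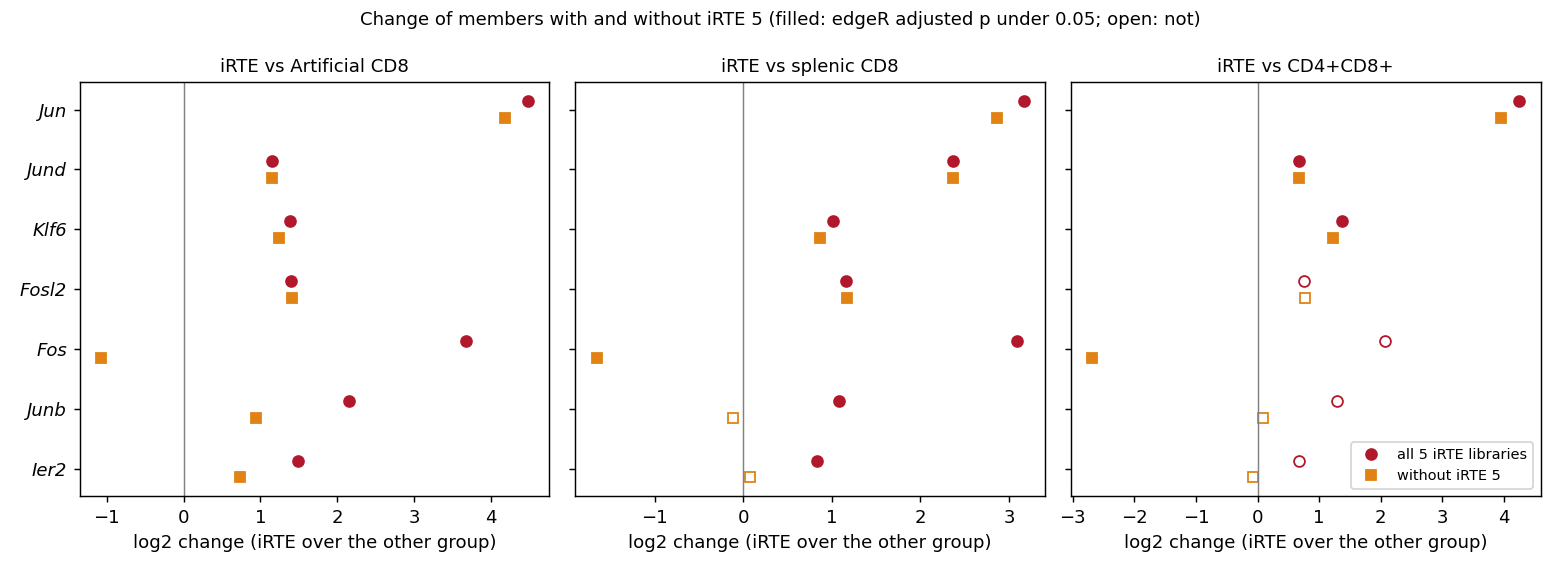
Log2 change of 7 members in iRTE against Artificial CD8, splenic CD8 and CD4+CD8+ cells, with all 5 iRTE libraries (circles) and without iRTE 5 (squares). Filled symbols passed the edgeR test and open symbols did not. Both values lie on the same side of 0 for Jun, Jund, Klf6 and Fosl2, and Fos went to the other side of 0 in all 3 comparisons, to -1.08, -1.66 and -2.68.

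Other immediate early genes showed the same division between iRTE 5 and the rest of its group. iRTE 5 was the highest of all 18 libraries for 16 of 23 tested genes of a list of other immediate early genes and for 6 of the 9 tested members, and for 7.88% of all genes tested. The level in iRTE 5 was more than 2 times the median of iRTE 1 to 4 and that median above 0, for 15 of the 23 genes and for 12.9% of all genes. Egr1, a zinc finger factor induced through MAP kinases and serum response factor, had 20.02, 18.7, 16.2, 5.17 and 355 CPM in iRTE 1 to 5, against 8.40 to 15.0 CPM in Artificial CD8, 52.8 to 64.0 CPM in splenic CD8 and 24.1 to 26.2 CPM in CD4+CD8+ libraries. Nr4a1, an orphan nuclear receptor that follows antigen receptor signals in T cells, had 5.94, 1.69, 3.01, 1.12 and 113 CPM in iRTE 1 to 5, against 12.3 to 19.6 CPM in Artificial CD8, 14.1 to 22.2 CPM in splenic CD8 and 21.3 to 32.5 CPM in CD4+CD8+ libraries. For Nr4a1, as for Fos, iRTE held the highest library and, in iRTE 1 to 4, levels below every splenic CD8 and CD4+CD8+ library. Egr1 rose in iRTE over Artificial CD8 cells by 2.82 (SE 1.02, adjusted p = 0.00799) and did not pass without iRTE 5 (0.34, adjusted p = 0.326). Against splenic CD8 cells it did not pass with all libraries (0.56, adjusted p = 0.531) and fell without iRTE 5 (-1.93, adjusted p = 8.49e-06). Nr4a1 passed in neither comparison with all libraries (0.65 against Artificial CD8 and 0.47 against splenic CD8 cells) and fell in both without iRTE 5 (-2.48, adjusted p = 1.53e-05, and -2.66, adjusted p = 3.34e-06). Over the list, iRTE 1 to 4 lay below all splenic CD8 libraries for 12 of 23 genes, a count for which the share over all genes was not computed. Against splenic CD8 cells 8 of the 23 were higher and 3 lower with all libraries, a smaller share than the 58.2% of all genes called there, and 7 of 22 were higher and 13 lower without iRTE 5. Of all 13680 genes tested without iRTE 5, 4209 were higher and 4277 lower, 62% in all.

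The marker Cd69, a membrane protein induced early in T-cell activation through AP-1 sites, had 109, 83.6, 44.0, 27.8 and 1286 CPM in iRTE 1 to 5, against 16.5 to 24.4 CPM in Artificial CD8, 226 to 261 CPM in splenic CD8 and 18.3 to 25.7 CPM in CD4+CD8+ libraries. Every iRTE library was above every Artificial CD8 library, and 4 of the 5 were below every splenic CD8 library. Cd69 was higher in iRTE than in Artificial CD8 cells by 4.07 (SE 0.96, adjusted p = 0.000469), and by 1.83 without iRTE 5 (adjusted p = 2.65e-05). Against splenic CD8 cells it did not pass with all libraries (0.32, adjusted p = 0.711), and without iRTE 5 its change was -1.92 (adjusted p = 9.83e-06).

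Other properties of iRTE 5 are given as measured. Its total of 15654546 counts was within the range of the iRTE group, 11691286 to 16533373. Its mitochondrial share of counts was 0.868%, beside 0.903% in iRTE 4 and 1.76% to 2.17% in iRTE 1 to 3. It had counts in 16239 genes, and iRTE 1 to 4 had counts in 14970 to 15332. The heat shock genes, a list chosen as a sign of stress in handling, summed to 5136 CPM in iRTE 5 and to 4531 to 6003 CPM over the iRTE libraries. Hspa8 and Hsp90ab1, which averaged 2488 and 1377 CPM in iRTE, made up most of these sums. iRTE 5 was the highest of 18 for 0 of 10 tested heat shock genes, and their median ratio to iRTE 1 to 4 was 0.958. Hspa1b differed, with 2.36 CPM in iRTE 5 and a median of 0 in iRTE 1 to 4, beside 1.77 to 2.95 CPM in splenic CD8 libraries. Hspa1a was left out of the test by the filter on low counts, and its highest level of all libraries, 1.79 CPM, was in iRTE 5. It had 0 counts in 3 other iRTE libraries and in all Artificial CD8 and CD4+CD8+ libraries. In splenic CD8 libraries Hspa1a had 0.0540 to 0.594 CPM. The kinases and SRF factors upstream of AP-1 had a median ratio of 0.852 in iRTE 5, and 1 of 21 was highest there. Summed levels of thymic epithelial, NK and gamma-delta and stromal markers in iRTE 5 (150, 2056 and 1.15 CPM) were inside the ranges of iRTE 1 to 4. T-cell markers (9645 CPM against 9930 to 11493 CPM in iRTE 1 to 4) and myeloid markers (77.6 CPM against 92.8 to 141 CPM) were lowest of the group in iRTE 5, and B-cell markers highest (7.09 CPM against 3.45 to 6.35 CPM). Rag1 had 3.07 CPM in iRTE 5 and 0 counts in 3 of the other iRTE libraries. The part of these measures in the result was not tested.

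**Figure D3:**
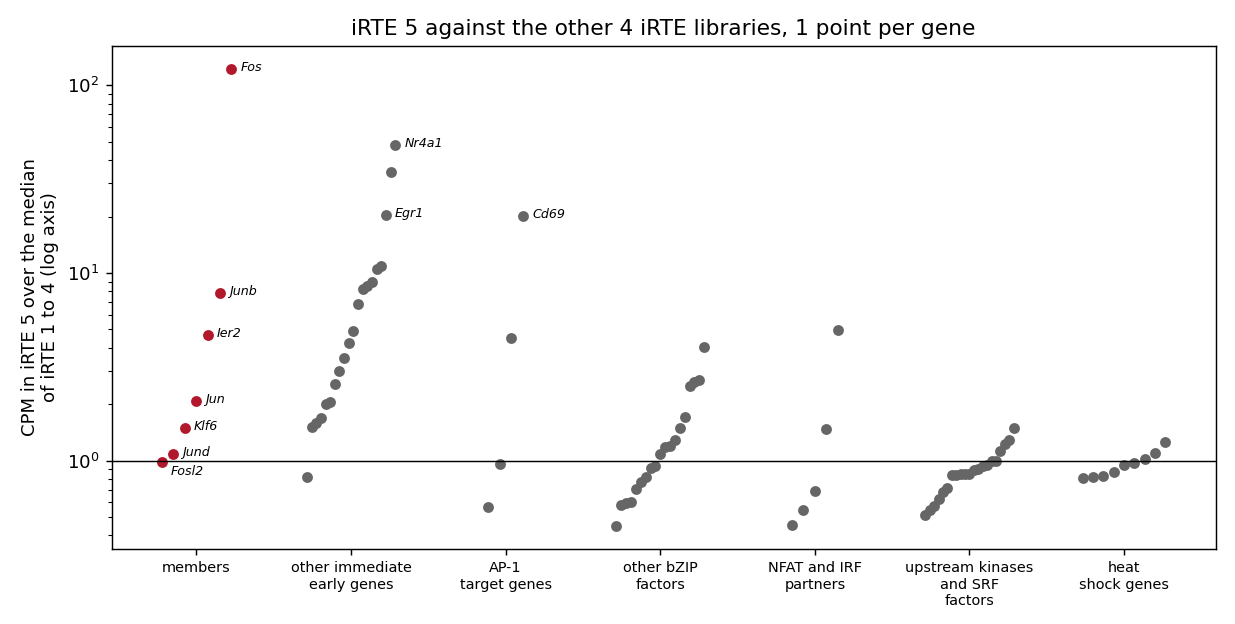
CPM in iRTE 5 divided by the median of iRTE 1 to 4, on a log axis, 1 point per gene, for the members (red) and 6 other gene lists (grey). Genes at 5 CPM or more in either value, with a ratio above 0, are drawn. Fos stands at 123, Junb at 7.85, Ier2 at 4.66, Jun at 2.08, Jund at 1.08 and Fosl2 at 0.98, and the heat shock genes drawn lie close to 1. Hspa1b is under the 5 CPM limit and Hspa1a was not tested, so neither is drawn.

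Other bZIP factors that share or compete for AP-1 sites went both ways, and the changes given here for Jdp2, Bach2, Nfil3 and Batf in iRTE kept their direction and passed without iRTE 5. Of 23 tested, 5 were higher and 6 lower in iRTE than in Artificial CD8 cells, with a median change of -0.14, a split like that of all genes (20% higher and 18.7% lower). Jdp2, a bZIP repressor that pairs with Jun, had 0.976 to 2.39 CPM in iRTE libraries, against 15.4 to 18.6 CPM in Artificial CD8, 0.211 to 0.422 CPM in splenic CD8 and 7.43 to 11.98 CPM in CD4+CD8+ libraries. It was lower in iRTE than in Artificial CD8 cells at a log2 change of -3.63 (SE 0.23, adjusted p = 1.16e-08), and of -3.54 without iRTE 5. Between these groups Jun and Jdp2 differed in opposite directions. Bach2, a bZIP repressor that occupies AP-1 sites in naive CD8+ T cells, had 53.2 to 90.6 CPM in iRTE, against 15.9 to 25.3 CPM in Artificial CD8, 136 to 165 CPM in splenic CD8 and 17.6 to 26.7 CPM in CD4+CD8+ libraries. Its level in iRTE was higher than in Artificial CD8 cells by 1.74 (SE 0.21, adjusted p = 2.75e-07), higher than in CD4+CD8+ cells by 1.61 (SE 0.24, adjusted p = 1.51e-05) and lower than in splenic CD8 cells at -1.11 (SE 0.17, adjusted p = 1.62e-05). Nfil3, a bZIP repressor with its own target sites, had 16.0 to 53.0 CPM in iRTE, 7.57 to 11.1 CPM in Artificial CD8, 2.35 to 3.83 CPM in splenic CD8 and 18.7 to 21.6 CPM in CD4+CD8+ libraries. It was higher in iRTE than in Artificial CD8 cells by 2.13 (SE 0.32, adjusted p = 1.66e-06) and higher in iRTE than in splenic CD8 cells by 3.83 (SE 0.33, adjusted p = 1.1e-09). Batf, which pairs with Jun proteins and IRF4, was higher in iRTE than in Artificial CD8 cells by 0.89 (SE 0.20, adjusted p = 0.000452).

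Genes upstream of AP-1 were changed in both directions between iRTE and the other groups. Against Artificial CD8 cells 11 of 21 kinases and SRF factors were higher and 4 lower, beside 20% and 18.7% of all genes. Mapk8, which encodes the Jun kinase JNK1, was lower in iRTE than in Artificial CD8 cells at -1.06 (SE 0.25, adjusted p = 0.000924) and lower than in splenic CD8 cells at -1.57 (SE 0.22, adjusted p = 9.99e-06), with 3.10 to 7.09 CPM in iRTE, 8.40 to 14.4 CPM in Artificial CD8 and 12.4 to 17.5 CPM in splenic CD8 libraries. Mapk9, which encodes JNK2, was lower in iRTE than in splenic CD8 cells at -0.97 (SE 0.10, adjusted p = 1.59e-06) and lower than in CD4+CD8+ cells at -1.08 (SE 0.18, adjusted p = 1e-05). Mef2d, a factor that binds the Jun promoter, and Elk3, an SRF partner, were higher in iRTE than in Artificial CD8 cells by 0.65 (SE 0.10, adjusted p = 2.64e-05) and 0.91 (SE 0.13, adjusted p = 7.53e-05). Among NFAT and IRF partners, Nfatc2 was higher in iRTE than in splenic CD8 cells by 1.22 (SE 0.27, adjusted p = 3.48e-05), and of its 5 iRTE libraries iRTE 5 was the lowest at 84.0 CPM, against 163 to 216 CPM in iRTE 1 to 4. Against splenic CD8 cells 6 of the 21 upstream genes were higher and 7 lower, near the shares of all genes (29.2% and 29%). The changes of Mapk8, Mapk9, Mef2d, Elk3 and Nfatc2 given here kept their direction and passed without iRTE 5.

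Genes known to carry AP-1 sites did not all follow Jun. Of 8 tested, 3 were higher and 1 lower in iRTE than in Artificial CD8 cells, and 4 were higher and 0 lower in iRTE than in splenic CD8 cells. These totals are near the background, with 38.7% and 58.2% of all genes called in either direction. Il2ra, the high-affinity interleukin 2 receptor chain, was lower in iRTE than in Artificial CD8 cells at -2.50 (SE 0.60, adjusted p = 3.32e-05) and higher than in splenic CD8 cells by 4.53 (SE 0.60, adjusted p = 7.61e-08). Plaur, the urokinase receptor, was higher in iRTE than in splenic CD8 cells by 1.58 (SE 0.20, adjusted p = 2.17e-06). The changes of Il2ra and Plaur kept their direction and passed without iRTE 5. Among immediate early genes that did not depend on iRTE 5 against splenic CD8 cells, Myc was higher in iRTE by 2.50 (SE 0.29, adjusted p = 3.76e-08), and by 2.10 without iRTE 5. Dusp2, a phosphatase that switches off MAP kinases, was lower at -1.68 (SE 0.38, adjusted p = 6.98e-05), and Btg2, an inhibitor of proliferation, was lower at -1.21 (SE 0.22, adjusted p = 2.97e-06), and without iRTE 5 they were lower at -2.23 and -1.40.

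**Figure D4:**
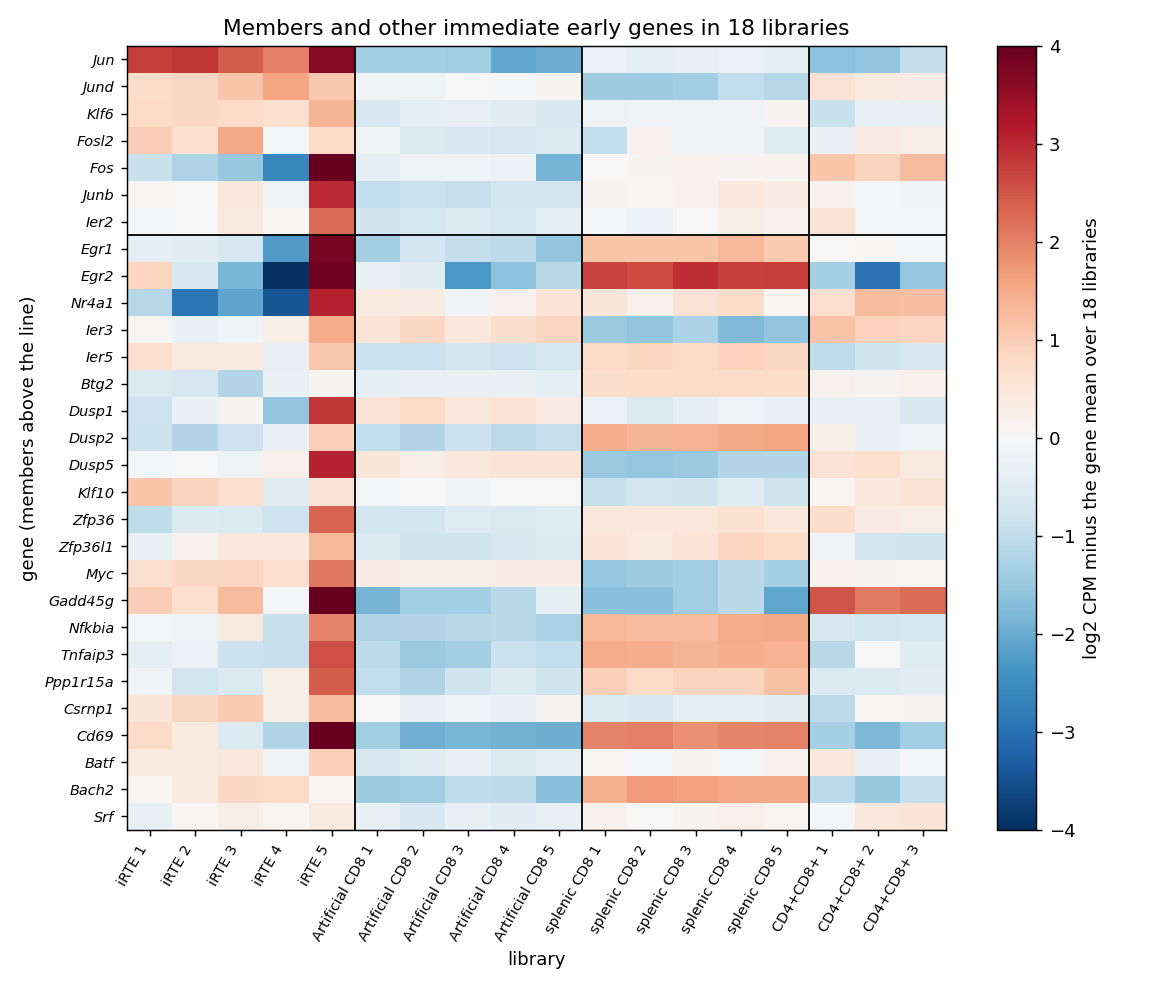
Log2 CPM minus the mean of the gene over the 18 libraries (colour), with genes as rows and libraries as columns in the order iRTE, Artificial CD8, splenic CD8 and CD4+CD8+. 7 members are above the horizontal line, and below it are 18 other immediate early genes that averaged at least 10 CPM in a group, then Cd69, Batf, Bach2 and Srf. Jun, Jund and Klf6 are red across all 5 iRTE columns, and Fos, Egr1 and Nr4a1 are red in iRTE 5 and blue in iRTE 1 to 4.

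The genes whose pattern over the 18 libraries was most like that of Jun and of Fos were ranked by the root mean square difference of mean-centred log2 CPM, over 9415 genes that averaged at least 10 CPM in a group. For Jun they were Ppm1j (0.636), 1700016L21Rik (0.692), Cxcr6 (0.741), Ctla2a (0.822) and Ncf4 (0.877). Cxcr6, a chemokine receptor of tissue-resident and effector T cells, averaged 393 CPM in iRTE, 31.5 CPM in Artificial CD8, 139 CPM in splenic CD8 and 41.5 CPM in CD4+CD8+ cells, the same order of groups as Jun from iRTE to Artificial CD8. For Fos they were Egr1 (0.949), Nr4a1 (0.978), Zfp36 (1.02), H1f0 (1.15) and Arrdc3 (1.16). Zfp36, which encodes an mRNA-destabilising protein, had 289 CPM in iRTE 5 and 27.9 to 39.0 CPM in iRTE 1 to 4. Among the members themselves, Junb and Ier2 were the most alike pair (0.27), and Jun and Fos were the least alike (2.31). All these patterns share the 18 libraries, and those of Fos rest largely on iRTE 5.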

How the data were processed

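The counts used here are whole numbers per gene symbol that the authors deposited for each of the 18 libraries. They were made with STAR 2.4.2, Subread and build mm9, per the submitters' processing notes, and the file headers name a sorted alignment with duplicates marked. The sources used here name neither annotation release nor strand setting, so reads shared with antisense or near-identical genes cannot be told apart. A table of log-scale values was not used here. With edgeR 4.0.16 (R 4.3.3), low counts were removed with filterByExpr at its defaults, which left 13922 genes, and totals were scaled by TMM. A quasi-likelihood model of all 18 libraries, with group as the only factor, was tested in 6 comparisons with Benjamini-Hochberg adjustment over all genes tested and a threshold of 0.05. SE values come from the spread of log2 CPM (prior count 2) within groups and are independent of the model. They belong to the difference of mean log2 CPM between groups, not to the log2 change printed beside them. These quantities can lie far apart where a single library stands apart, as iRTE 5 did for Fos, Junb, Ier2, Egr1 and Cd69. A change should therefore not be divided by its SE. Simulated data with known changes were used to check the fit. Groups were taken to overlap unless every library of 1 lay above every library of the other. Replicates differed by more than counting error (chi-square per degree of freedom at least 4.37). The members and lists were chosen with earlier results of these data known. Of each list and comparison the 2 genes called with the smallest adjusted p in each direction, at 10 CPM or more in a group, could be named, with Egr1, Egr2, Nr4a1, Batf, Bach2, Srf and Cd69 always allowed, and with the 5 genes most like Jun and Fos. Some genes of the marker and heat shock lists were also named to describe those lists. Alternatives were limma-voom (limma 3.58.1), DESeq2 1.42.0, other scalings and filters, a replicate block, the groups alone, subsets of iRTE and leaving out each library.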

Additional observations from a re-analysis of the deposited data

Results flagged for a closer look

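Within groups of 4 to 10 libraries, a library was singled out when its gap to the nearest other was a larger part of the group's range than chance gives in about 1 in 20 groups. That rate holds for normally distributed values, whereas the values here were CPM, some of them near the floor. Of 29 combinations of a member and a group, 10 were singled out, and 6 of these were iRTE 5. The 6 share that library and are not independent of each other. In iRTE 5 they were Junb at 852 CPM, Fos at 147 CPM, Ier2 at 606 CPM, Klf6 at 539 CPM, Fosl1 at 2.62 CPM and Atf3 at 3.07 CPM, each the highest of the group. Atf3 had 0 counts in every other iRTE library, so its gap equalled the range whatever its level in iRTE 5. Among Artificial CD8 libraries, Fos was low in Artificial CD8 5 at 0.824 CPM and Fosl2 was high in Artificial CD8 1 at 5.20 CPM. Among splenic CD8 libraries, Klf6 was high in splenic CD8 5 at 224 CPM and Fos was low in splenic CD8 1 at 3.29 CPM, within 0.361 CPM of the highest library of that group.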

How the results depend on the processing

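Jun and Klf6 were higher in iRTE, and passed, under every setting run and in all 3 comparisons, and so was Jund except against CD4+CD8+ cells in a fit of the 2 groups alone (0.67, adjusted p = 0.0745). Jun moved between 4.18 and 4.68 against Artificial CD8 cells, between 2.87 and 3.37 against splenic CD8 cells and between 3.95 and 4.52 against CD4+CD8+ cells. The number of members tested changed with the setting and is given with the counts. For iRTE against splenic CD8 cells 7 of 9 tested members were called, and 5 to 7 leaving out 1 library (8 or 9 tested). There were 4 calls with no filter (10 tested), a filter at 10 CPM (6 tested), limma-voom (9 tested), the replicate block (9 tested) or the 2 groups alone (7 tested). Of all genes these settings called, in that order, 34.5%, 66%, 59.6%, 57.2% and 57.4%, beside 58.2% in the main fit. For iRTE against CD4+CD8+ cells there were 3 calls of 9 tested members, 5 of 8 with iRTE 1 to 3 only and 6 of 10 with iRTE 4 and 5 only. There were 2 of 7 with the 2 groups alone, and 3 to 5 leaving out 1 library (5 of 8 without iRTE 4). All genes were called there at 24.2% in the main fit, 35.6% with iRTE 1 to 3 only and 23.6% with iRTE 4 and 5 only. The share was 8.89% with the 2 groups alone and 29.8% without iRTE 4. For Artificial CD8 against splenic CD8 cells there were 3 calls of 9 tested members, 5 of 9 with the block and 5 of 8 with the 2 groups alone. The share of all genes called was 60.6% in the main fit, 60% with the block and 76% with the 2 groups alone. For Artificial CD8 against CD4+CD8+ cells the 1 call of 9 tested members became 0 with RLE scaling (9 tested), no scaling factor (9), no filter (10) or a filter at 10 CPM (6). It became 2 of 9 with the block, 4 of 8 with the 2 groups alone, and 0 to 1 leaving out 1 library. All genes were called there at 14.7% in the main fit, 14.4% with RLE scaling and 14% with no scaling factor. The share was 6.81% with no filter, 18.9% with a filter at 10 CPM, 13.1% with the block and 26.2% with the 2 groups alone. For splenic CD8 against CD4+CD8+ cells 2 calls of 9 tested members became 1 of 9 with limma-voom and 4 of 8 with the 2 groups alone. The share of all genes called was 56.2% in the main fit, 57.1% with limma-voom and 70.7% with the 2 groups alone. The 7 calls of 9 tested members for iRTE against Artificial CD8 cells ran from 5 of 7 with DESeq2 to 8 of 10 with iRTE 4 and 5 only. All genes were called there at 41% and 33.9%, beside 38.7% in the main fit.

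Some directions turned. With iRTE 1 to 3 only, the changes were -0.79, -1.37 and -2.39 for Fos against Artificial CD8, splenic CD8 and CD4+CD8+ cells, -0.028 for Junb and -1.63 for Egr1 and -1.66 for Cd69 against splenic CD8 cells, -0.067 for Ier2 against CD4+CD8+ cells, and -2.19 and -2.36 for Nr4a1 against Artificial CD8 and splenic CD8 cells. Without iRTE 5 they were -1.08, -1.66 and -2.68 for Fos, -0.12 for Junb, -1.93 for Egr1, -1.92 for Cd69, -0.075 for Ier2, and -2.48 and -2.66 for Nr4a1; the highest values on leaving out another library were, in the same order, 4.00, 3.42, 2.39, 1.30, 0.86, 0.62, 0.90, 0.96 and 0.79. With limma-voom they were -0.19 and -1.22 for Fos against splenic CD8 and CD4+CD8+ cells, -1.08 for Egr1 and -1.18 for Cd69 against splenic CD8 cells, and -1.49 and -1.68 for Nr4a1. With the replicate block they were -1.33 for Fos against CD4+CD8+ cells, -0.90 for Egr1 and -1.03 for Cd69 against splenic CD8 cells, and -1.14 and -1.46 for Nr4a1. Leaving iRTE 5 out takes its high values out by construction, and so does keeping iRTE 1 to 3 only. For limma-voom and the replicate block the cause was not tested. DESeq2 gave no adjusted p for Junb and Fos.

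The correlation of deviations between libraries with the same replicate number ran from -0.179 to 0.165 over 24 pairs, and 4 were over 0.1. Correlations between libraries with different numbers were not computed, so whether the numbers pair the libraries was not tested. With no scaling factor the median of all genes moved by -0.12, -0.18 and -0.10 for iRTE against Artificial CD8, splenic CD8 and CD4+CD8+ cells. Depth limits Fosb, Fosl1 and Atf3, which had 0 to 48 counts. Over the alternatives the adjusted p of Fos ranged between 0.000488 and 0.837 against Artificial CD8 cells and between 0.00078 and 1 against splenic CD8 cells. The adjusted p against splenic CD8 cells ranged between 0.00163 and 0.849 for Junb, and between 0.0016 and 0.67 for Ier2.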
